A study of Capra hircus with 72 samples.

Results

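Of the 72 libraries of the goat series, 12 hold the contrast described here, moderate against mild chronic hypercapnia in the medial prefrontal cortex (mPFC). They were chosen by their labelled region and condition, with 6 libraries a side. Moderate hypercapnia was 14 days of raised inspired CO2, namely 7 days at 6% and then 7 days at 8%. Mild hypercapnia was 14 days at 6% throughout, so the contrast asks what the second week at 8% added. Female goats (Capra hircus) were used, 6 animals a condition per the series description, and total RNA was sequenced after low-input library preparation. The 6 room air mPFC libraries entered the fit and give the untreated level, but are not a side of the contrast.

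Hypercapnia is an excess of CO2, which acidifies blood and brain fluid until bicarbonate is retained. It is sensed chiefly in the brainstem, where the retrotrapezoid nucleus (RTN), the nucleus of the solitary tract (NTS) and the ventral respiratory column (VRC) take part in driving breathing. The mPFC is a forebrain area known for executive, emotional and autonomic control, and it carries many receptors for glucocorticoids, the adrenal stress steroids.

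Moderate libraries held 12.84 to 24.14 M counts and mild libraries 17.3 to 22.65 M. The tissue label held up: all 18 markers of cortical excitatory neurons had a median above 1 CPM (read counts per unit of library size, TMM-adjusted) over the 12 libraries, among them SLC17A7, the cortical vesicular glutamate transporter. Of 24 hindbrain identity genes, 18 had a median under 0.1 CPM and 6 were at 0 in all 12 libraries. Replicates differed far beyond counting noise (chi-square per degree of freedom 26.3 to 90.6 among moderate and 23.2 to 103 among mild libraries). The groups did not separate on the first principal component, which held 35.5% of the variance. Mild replicates 1, 5 and 6 lay at one end of it, and moderate replicates 2 and 5 with mild replicate 3 at the other. Mild replicates 1 and 5 also lay at the opposite ends of the second component and received the lowest quality weights, 0.505 and 0.334. List medians fitted without these 2 libraries, a choice made after seeing the data, are given beside those that moved by over 0.05 and over 1.5 times.

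No gene differed between moderate and mild hypercapnia at an adjusted p under 0.05. edgeR tested 15403 genes and called 0 of them (0%), and the lowest adjusted p was 0.954. DESeq2 and limma with quality weights called 0 as well. At an unadjusted p under 0.05 stood 725 genes (4.71%), against 770 expected if no gene differed, with 335 higher (2.17%) and 390 lower (2.53%) in moderate libraries. DESeq2 put 818 genes under that level and limma 634. Fold changes lay above 0 for 8337 genes (54.1%) and below 0 for 7066 (45.9%), with a median log2 value of 0.018.

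The data bounded most differences closely. The 95% interval of the fold change lay wholly within 2-fold either way for 12998 genes (84.4%), and within 1.5-fold for 9432 (61.2%). An absolute log2 fold change above 1 was fitted for 147 genes, and 48 of these had an unadjusted p under 0.05. Errors after a log2 fold change are standard errors, and errors after a mean CPM are SD over the libraries of the group. All p-values below that are not named as adjusted are unadjusted, and every gene named has an adjusted p of at least 0.954. None is therefore a called change, and the genes are given as the values of smallest p or as members of gene lists. Among 39 lists of pathway and cell type genes with 841 tested members, 0 were called and 38 had a p under 0.05. That share is no higher than the 4.71% of all genes tested, and the counts of single lists below stand beside it.

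**Figure D1:**
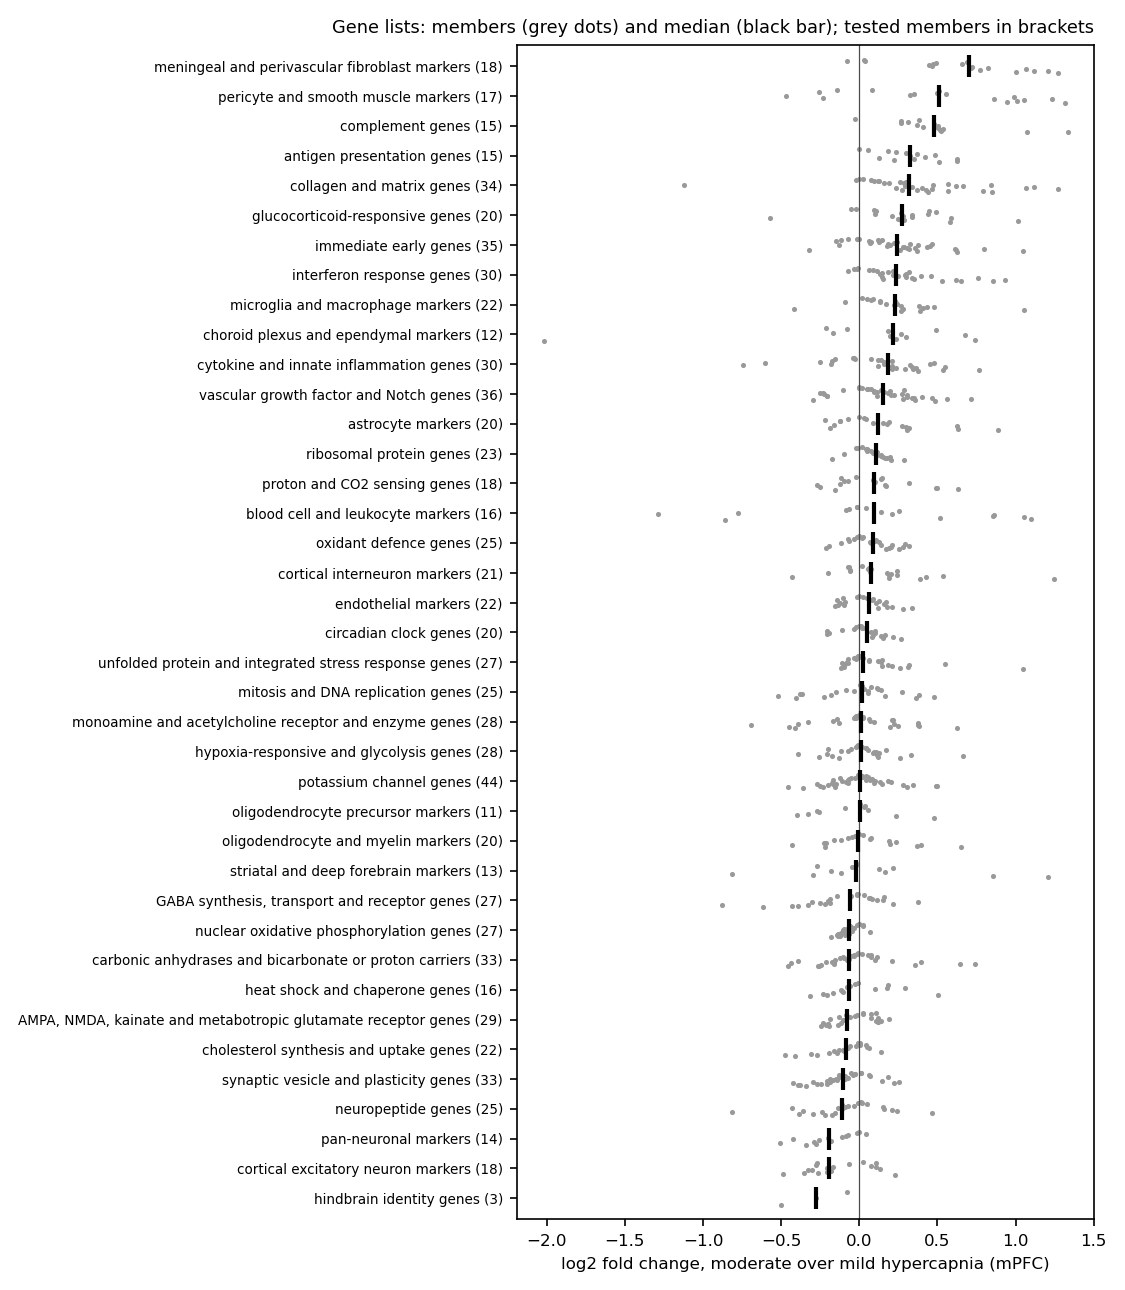
Log2 fold changes, moderate over mild, of the tested members of 39 gene lists in the mPFC (grey dots, 1 per gene) with the list's median (black bar), ordered by median. The medians ran from -0.28 for the 3 hindbrain genes to 0.70 for the meningeal markers, and no member passed an adjusted p of 0.05.

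Of the 10 genes of smallest p with lower values in moderate libraries, PMS1, TMEM41B and AKAP7 came first. PMS1 (chromosome 2), a mismatch repair protein, lay between 9.75 and 16.8 CPM (median 13.6) in moderate libraries and between 16.3 and 23.5 CPM (median 20.2) in mild libraries. All 6 moderate libraries lay below the mild median, and the log2 fold change was -0.62 ± 0.15 (95% interval -0.92 to -0.31). Room air libraries averaged 14.3 ± 2.75 CPM (SD). TMEM41B (chromosome 15), a lipid scramblase of the endoplasmic reticulum needed for autophagosome formation, lay between 31.7 and 49.1 CPM (median 38.8) in moderate libraries and between 48.8 and 74.7 CPM (median 53.3) in mild libraries. The ranges overlapped by under 1 CPM, and the log2 fold change was -0.52 ± 0.12 (95% interval -0.78 to -0.26). AKAP7 (chromosome 9), an anchoring protein for protein kinase A, lay between 9.6 and 12.6 CPM (median 11.2) in moderate libraries and between 14.2 and 26.3 CPM (median 15.1) in mild libraries, so the groups did not overlap. Its log2 fold change was -0.58 ± 0.14 (95% interval -0.88 to -0.29), and -0.41 without mild replicate 5, which was the highest library.

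In the same direction stood SRP9, a subunit of the signal recognition particle, at 44.6 ± 3.29 CPM in moderate and 59.7 ± 10.6 CPM in mild libraries (SD, 6 libraries each), and NOVA1, a neuronal splicing regulator, at 16.4 ± 1.92 CPM in moderate and 21.6 ± 2.43 CPM in mild libraries. Their log2 fold changes were -0.42 ± 0.11 and -0.39 ± 0.10. HSD17B6, a hydroxysteroid dehydrogenase, had the lowest fold change of the 10, -0.90 ± 0.24 (95% interval -1.40 to -0.39). It lay between 9.3 and 22.5 CPM (median 11.5) in moderate libraries and between 14.6 and 33.9 CPM (median 25) in mild libraries, with all 6 moderate libraries below the mild median. PRSS33, a serine protease, had a log2 fold change of -0.79 ± 0.21, with 5.49 ± 1.24 CPM in moderate and 9.54 ± 2.76 CPM in mild libraries. WASL, an activator of actin branching, ORC4, a subunit of the origin recognition complex, and FAM3C, a secreted protein, stood at -0.46 ± 0.12, -0.35 ± 0.09 and -0.43 ± 0.12. Without mild replicates 1 and 5 these 3 values were -0.30, -0.23 and -0.26.

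Of the 10 genes of smallest p with higher values in moderate libraries, 3 are NID1, LAMC3 and VASH1. NID1 (chromosome 28), nidogen of basement membranes, lay between 6.43 and 15.8 CPM (median 8.44) in moderate libraries and between 3.16 and 6.82 CPM (median 5.01) in mild libraries. Moderate replicate 2 was the highest, and the log2 fold change was 0.85 ± 0.25 (95% interval 0.32 to 1.38), or 0.62 without that library. LAMC3 (chromosome 11), a laminin chain, lay between 66.1 and 115 CPM (median 77.8) in moderate libraries and between 46.9 and 66.9 CPM (median 56.3) in mild libraries, with a log2 fold change of 0.58 ± 0.18 (95% interval 0.21 to 0.95). VASH1 (chromosome 10), vasohibin, known as an angiogenesis inhibitor, lay between 10.1 and 19.1 CPM (median 13.7) in moderate libraries and between 6.27 and 11.8 CPM (median 10.2) in mild libraries, with a log2 fold change of 0.54 ± 0.16 (95% interval 0.20 to 0.87). Room air libraries averaged 6.99 ± 2.11 CPM for NID1, 73.9 ± 20.6 CPM for LAMC3 and 10.7 ± 1.43 CPM for VASH1 (SD), which lies between the other groups' means in each case.

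The other 7 genes on that side have varied known roles where one is given. USH1G, a scaffold protein of sensory hair cells, had the smallest p of them, a log2 fold change of 0.57 ± 0.15 (95% interval 0.24 to 0.89) and 27.4 ± 6.89 CPM in moderate and 18.4 ± 3.2 CPM in mild libraries. SMARCD2, a chromatin remodelling subunit, averaged 38.2 ± 7.39 CPM in moderate and 26.9 ± 4.02 CPM in mild libraries. SLC29A3, a nucleoside transporter, ADAM15, a membrane metalloprotease, and JRK, a DNA-binding protein, had log2 fold changes of 0.38 ± 0.11, 0.36 ± 0.10 and 0.30 ± 0.09. TRMT2A, a tRNA methyltransferase, stood at 0.26 ± 0.08, an interval of 0.09 to 0.43. PCDHGB5, a clustered protocadherin, stood at 0.45 ± 0.13, and its reads may be shared with near-identical genes of its cluster.

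**Figure D2:**
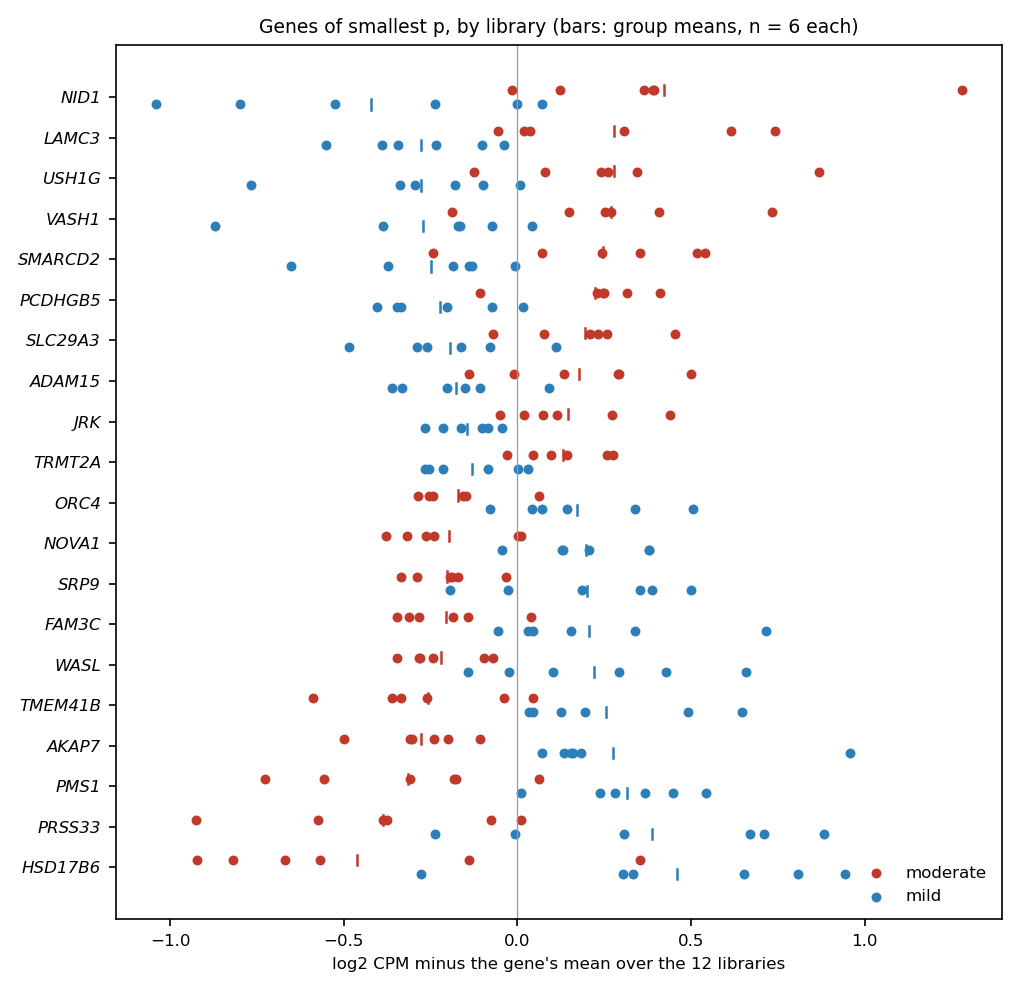
Log2 CPM of the 10 higher and 10 lower genes of smallest p in each mPFC library, less the gene's mean over the 12 libraries (red, moderate, above blue, mild; bars are group means, 6 libraries each). AKAP7 is the 1 gene of the 20 with no overlap between the groups.

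Over all genes tested, 20 (0.13%) had groups that did not overlap, 6 with all moderate libraries higher (0.039%) and 14 with all lower (0.0909%). That share is not above what random labels on the 12 libraries would give, so lack of overlap does not mark these genes as changed. Those named here besides AKAP7 were chosen after their values were seen. The 6 higher genes were HGH1, TMEM102, KCNE3, DKK2, BET1L and ADAMTS18. KCNE3, an accessory subunit of potassium channels, lay between 0.524 and 1.75 CPM (median 0.72) in moderate libraries and between 0.179 and 0.517 CPM (median 0.378) in mild libraries. DKK2, a secreted modulator of Wnt signalling, lay between 4.84 and 8.85 CPM (median 5.61) in moderate libraries and between 2.58 and 4.68 CPM (median 3.74) in mild libraries. Their log2 fold changes were 1.23 ± 0.41 (95% interval 0.38 to 2.08) and 0.79 ± 0.28 (95% interval 0.20 to 1.38), and the counts of KCNE3 were low throughout. HGH1, TMEM102, BET1L, a Golgi SNARE protein, and ADAMTS18, a secreted metalloprotease, had log2 fold changes of 0.26 ± 0.08, 1.02 ± 0.33, 0.24 ± 0.09 and 0.43 ± 0.17. ADAMTS18 stood at 0.27 without mild replicates 1 and 5.

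On the lower side, HDAC2, a histone deacetylase abundant in neurons, lay between 80.5 and 90.7 CPM (median 87.7) in moderate libraries and between 91 and 109 CPM (median 101) in mild libraries with no overlap. Its log2 fold change was -0.22 ± 0.07 (95% interval -0.36 to -0.08). PHAX, an adaptor for nuclear export of small nuclear RNA, averaged 149 ± 10.8 CPM in moderate and 182 ± 20.4 CPM in mild libraries. SLC7A7, a cationic amino acid transporter subunit, averaged 99.5 ± 6.41 CPM in moderate and 118 ± 9.65 CPM in mild libraries, and STX17, a SNARE protein of autophagosomes, averaged 10.5 ± 1.06 CPM in moderate and 12.7 ± 0.786 CPM in mild libraries. These differences were small, with log2 fold changes of -0.29 ± 0.08, -0.25 ± 0.08 and -0.27 ± 0.10.

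Glucocorticoid-responsive genes held the highest count at p under 0.05 of any list. Among them, 17 of 20 tested members had a fold change above 0, the median was 0.27, and 5 had a p under 0.05, all higher, against 2.17% of all genes higher at that level. FKBP5 (chromosome 23), the co-chaperone that dampens the glucocorticoid receptor, lay between 15.7 and 82.9 CPM (median 20.6) in moderate libraries and between 11.8 and 19.7 CPM (median 14.2) in mild libraries. Moderate replicate 3 held the highest value, apart from the other 5, which lay up to 25.4 CPM. The log2 fold change was 1.02 ± 0.35 (95% interval 0.29 to 1.75) with all libraries and 0.40 without that one. Room air libraries averaged 15.9 ± 4.47 CPM (SD), close to the mild mean.

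KLF15 (chromosome 22), a transcription factor induced by glucocorticoids, lay between 15.6 and 27.1 CPM (median 20.5) in moderate libraries and between 10.5 and 18.3 CPM (median 13.5) in mild libraries. All 6 moderate libraries lay above the mild median, the log2 fold change was 0.58 ± 0.18 (95% interval 0.20 to 0.96), and room air averaged 16.3 ± 3.77 CPM. ANGPTL4, a secreted lipase inhibitor, ZBTB16, a zinc finger factor, and TSC22D3, known as GILZ, were chosen after their values were seen. ANGPTL4 lay between 16.9 and 21.3 CPM (median 18.8) in moderate libraries and between 11.9 and 17.3 CPM (median 15.9) in mild libraries, with a log2 fold change of 0.29 ± 0.12 (95% interval 0.05 to 0.53) and 13.3 ± 1.72 CPM in room air. ZBTB16 averaged 27.9 ± 4.00 CPM in moderate and 23.5 ± 3.07 CPM in mild libraries, and 20.3 ± 2.65 CPM in room air, with a log2 fold change of 0.25 ± 0.12 (95% interval 0.00 to 0.49). For ANGPTL4 and ZBTB16 the group means thus followed the order room air, mild, moderate. The list as a whole did not: its summed level had a median of 1455 CPM in room air, 1167 CPM in mild and 1368 CPM in moderate libraries. TSC22D3, a classical target, stood at 0.10 ± 0.08 (95% interval -0.07 to 0.27), at 117 ± 13.3 CPM in moderate and 109.6 ± 7.91 CPM in mild libraries. Without mild replicates 1 and 5 the list's median was 0.14, and with the meningeal marker score as a covariate it was 0.20.

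PER1, a repressor of the circadian clock that glucocorticoids also induce, lay between 47.4 and 79.3 CPM (median 63.7) in moderate libraries and between 44.3 and 58.9 CPM (median 52.4) in mild libraries. Its log2 fold change was 0.27 ± 0.12 (95% interval 0.02 to 0.52), and room air libraries averaged 50.3 ± 5.85 CPM. Among circadian clock genes as a whole, 13 of 20 tested members had a fold change above 0, the median was 0.05, and 1 had a p under 0.05, on the higher side. CRY2, another repressor of the clock, stood at 0.15 ± 0.10.

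Immediate early genes, which neurons and other cells switch on within minutes of stimulation, also lay mostly above 0. Among them, 28 of 35 tested members had a fold change above 0, the median was 0.24, and 3 had a p under 0.05, all higher, against 54.1% of all genes above 0. FOSL2 (chromosome 11), a partner of JUN in the AP-1 factor, lay between 3.76 and 7.09 CPM (median 5.24) in moderate libraries and between 1.98 and 4.26 CPM (median 3.66) in mild libraries, with a log2 fold change of 0.63 ± 0.22 (95% interval 0.16 to 1.09). CSRNP1, a nuclear protein induced early after stimulation, lay between 15 and 21.1 CPM (median 19.9) in moderate libraries and between 11 and 18.6 CPM (median 14.4) in mild libraries, with a log2 fold change of 0.37 ± 0.14 (95% interval 0.07 to 0.67). ATF3, a stress-induced factor, lay between 0.0629 and 0.571 CPM (median 0.547) in moderate libraries and between 0.113 and 0.419 CPM (median 0.176) in mild libraries, and 5 of 6 moderate libraries lay above the mild median. Its log2 fold change was 1.05 ± 0.42 (95% interval 0.16 to 1.94) at under 1 CPM in every moderate and mild library. FOS itself and APOLD1, an early gene of vessel endothelium, were chosen after their values were seen. FOS lay between 48.6 and 97.7 CPM (median 68.9) in moderate libraries and between 49.9 and 94 CPM (median 57.3) in mild libraries, the groups overlapping widely, with a log2 fold change of 0.18 ± 0.23 (95% interval -0.30 to 0.67). APOLD1 stood at 0.71 ± 0.38 (95% interval -0.10 to 1.52), with 2.7 ± 1.21 CPM in moderate and 1.65 ± 0.291 CPM in mild libraries.

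For 4 of these early genes the room air mean lay above both hypercapnia groups: 24.9 ± 4.06 CPM for CSRNP1, 0.871 ± 0.289 CPM for ATF3, 99.9 ± 32.5 CPM for FOS and 8.7 ± 5.97 CPM for APOLD1 (SD, 6 libraries each). FOSL2 averaged 4.23 ± 1.13 CPM in room air, between the moderate and the mild mean. The median of the early genes was 0.14 without moderate replicate 5, 0.12 without mild replicates 1 and 5 and 0.13 with the meningeal score as a covariate.

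**Figure D3:**
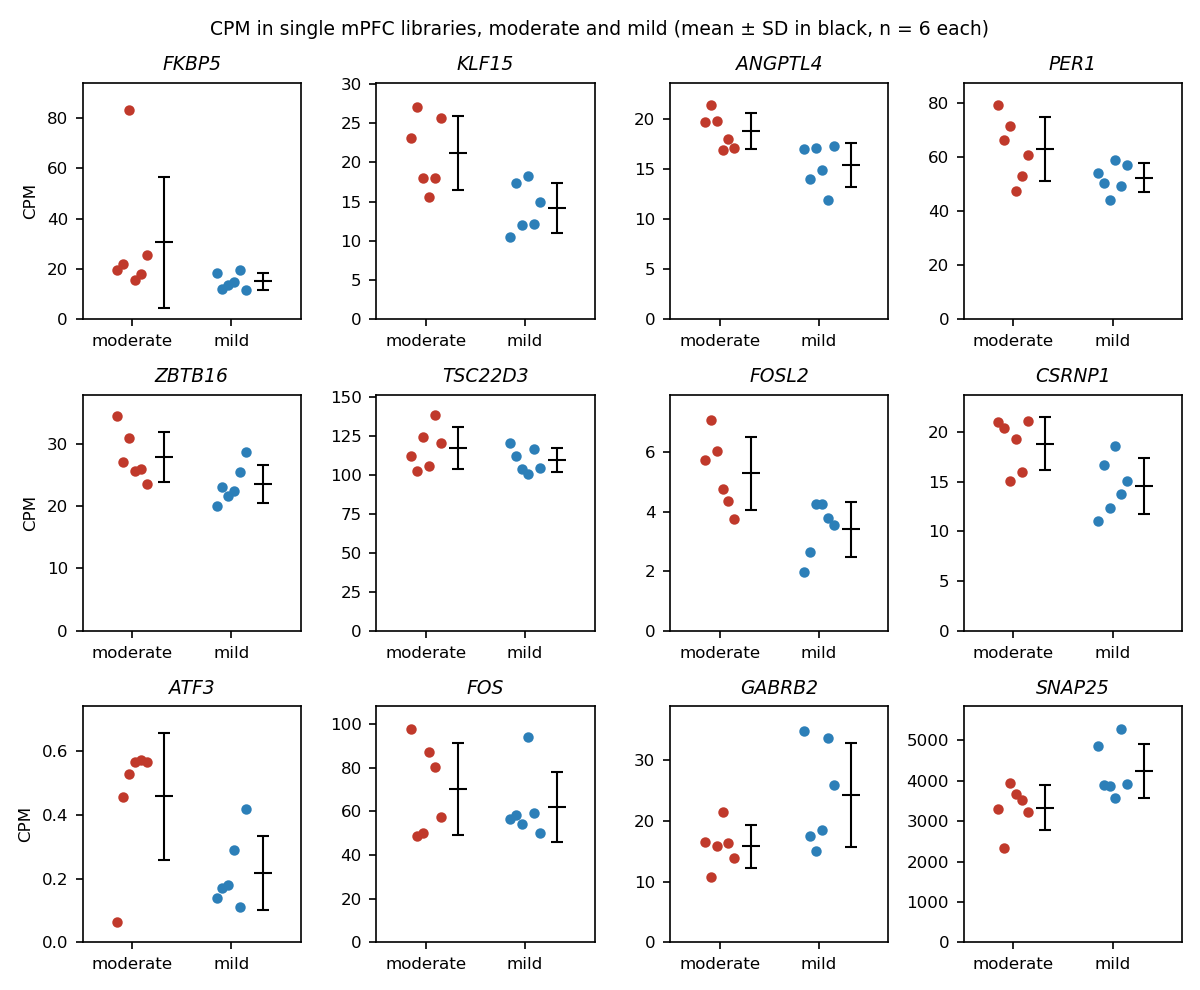
CPM of 12 genes in the single mPFC libraries (dots, replicates 1 to 6 from left to right; red, moderate; blue, mild), with the mean and SD in black (6 libraries each) and axes starting at 0. One moderate library carries FKBP5 at 82.9 CPM, while KLF15 and FOSL2 have all 6 moderate libraries above the mild median.

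Genes of acid-base transport and CO2 sensing, the group closest to the stimulus, gave no member at p under 0.05. Among carbonic anhydrases and carriers of bicarbonate or protons, 11 of 33 tested members had a fold change above 0, the median was -0.07, and none had a p under 0.05, and the median was -0.02 without mild replicates 1 and 5. The 2 of smallest p were SLC16A7, a monocarboxylate carrier of neurons, at -0.26 ± 0.17 (95% interval -0.62 to 0.10), and SLC26A4, an anion exchanger, at -0.46 ± 0.31 (95% interval -1.11 to 0.19). SLC16A7 lay between 5.05 and 8.43 CPM (median 6.31) in moderate libraries and between 6.03 and 12 CPM (median 6.94) in mild libraries, and without mild replicate 5, its highest library, the value was -0.09. SLC4A4, the sodium bicarbonate cotransporter of astrocytes, chosen after its values were seen, lay between 64.9 and 97.1 CPM (median 72.2) in moderate libraries and between 47 and 107 CPM (median 89.2) in mild libraries. Its 95% interval of -0.51 to 0.26 bounds a difference in either direction.

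Among proton and CO2 sensing genes, 10 of 18 tested members had a fold change above 0, the median was 0.09, and none had a p under 0.05. The sign of that median turned in several fits: it was -0.04 without mild replicates 1 and 5, -0.04 without mild replicate 1, -0.07 without moderate replicate 2, -0.03 with the meningeal covariate and -0.01 under limma. GJB6, connexin 30 of astrocytes, a channel that CO2 opens, lay between 71.1 and 232 CPM (median 107) in moderate libraries and between 53.6 and 149 CPM (median 72.6) in mild libraries, with a log2 fold change of 0.63 ± 0.39 (95% interval -0.19 to 1.45). The value was 0.08 with the meningeal score as a covariate. KCNK1, a potassium leak channel, stood at -0.15 ± 0.09 (95% interval -0.35 to 0.04). Hypoxia-responsive and glycolysis genes were centred on 0: 15 of 28 tested members had a fold change above 0, the median was 0.0098, and none had a p under 0.05. EPAS1, a hypoxia-inducible factor subunit, had a log2 fold change of 0.26 ± 0.15 (95% interval -0.05 to 0.57) and PGK1, a glycolytic enzyme, -0.13 ± 0.09 (95% interval -0.32 to 0.05). VEGFA, the vascular growth factor, chosen after its values were seen, averaged 22.6 ± 4.82 CPM in moderate and 26.1 ± 8.86 CPM in mild libraries (SD), with a log2 fold change of -0.21 ± 0.21 (95% interval -0.65 to 0.24).

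Pan-neuronal markers had a median below 0. Among pan-neuronal markers, 1 of 14 tested members had a fold change above 0, the median was -0.19, and 3 had a p under 0.05, all lower. SNAP25 (chromosome 13), a SNARE protein of transmitter release, lay between 2324 and 3941 CPM (median 3422) in moderate libraries and between 3571 and 5270.5 CPM (median 3907) in mild libraries, with a log2 fold change of -0.34 ± 0.12 (95% interval -0.60 to -0.08). ELAVL4, a neuronal RNA-binding protein, lay between 119 and 219.7 CPM (median 182) in moderate libraries and between 189 and 262 CPM (median 210.2) in mild libraries, with a log2 fold change of -0.28 ± 0.12 (95% interval -0.53 to -0.02). The summed level of the pan-neuronal markers lay between 8766 and 13100.1 CPM (median 12476) in moderate libraries and between 12161 and 16272 CPM (median 13028) in mild libraries. Moderate replicate 2 was the lowest library of the 12, and mild replicates 1 and 5 were the highest. Without those 2 mild libraries the list's median was -0.09 and SNAP25 stood at -0.22. In bulk tissue, fewer cells of a type and less RNA per cell cannot be told apart.

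Inhibitory synapse genes held 4 members at p under 0.05, all lower, where 2.53% of all genes were lower at that p. Among genes of GABA synthesis, transport and reception, 9 of 27 tested members had a fold change above 0, the median was -0.06, and 4 had a p under 0.05, all lower. GABRB2 (chromosome 7), a beta subunit of the GABA-A receptor, lay between 10.7 and 21.4 CPM (median 16.1) in moderate libraries and between 15 and 34.8 CPM (median 22.2) in mild libraries, with a log2 fold change of -0.61 ± 0.20 (95% interval -1.03 to -0.19). GLRB (chromosome 17), the beta subunit of the glycine receptor, lay between 139 and 219 CPM (median 185) in moderate libraries and between 185 and 349 CPM (median 215) in mild libraries, with a log2 fold change of -0.43 ± 0.15 (95% interval -0.74 to -0.12). All 6 moderate libraries lay below the mild median for GABRB2, and 5 of 6 for GLRB. Without mild replicates 1 and 5 the values were -0.30 and -0.20. Room air averaged 16.9 ± 2.04 CPM for GABRB2, close to the moderate mean, and 214 ± 21.4 CPM for GLRB.

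Other transmission genes had medians between -0.11 and 0.01. Among synaptic vesicle and plasticity genes, 8 of 33 tested members had a fold change above 0, the median was -0.10, and 2 had a p under 0.05, both lower. The median was -0.03 without moderate replicate 2, -0.18 without mild replicate 3 and -0.03 with the meningeal covariate. SYT4, a synaptotagmin, stood at -0.38 ± 0.17 (95% interval -0.72 to -0.03). Among glutamate receptor genes, 11 of 29 tested members had a fold change above 0, the median was -0.08, and none had a p under 0.05. That median was 0.0038 without moderate replicate 2, 0.0038 without mild replicate 5 and -0.01 under limma. CACNG2, stargazin, an AMPA receptor auxiliary subunit, stood at -0.19 ± 0.11. Among potassium channels, 24 of 44 tested members had a fold change above 0, the median was 0.0067, and none had a p under 0.05, with KCNJ6, a G protein-gated channel, at -0.36 ± 0.18 and KCNH7 at -0.46 ± 0.25. Monoamine and acetylcholine genes were centred on 0, as 14 of 28 tested members had a fold change above 0, the median was 0.0099, and 1 had a p under 0.05, on the higher side. The serotonin receptor HTR1B averaged 3.05 ± 1.12 CPM in moderate and 1.98 ± 0.805 CPM in mild libraries, with a log2 fold change of 0.63 ± 0.28 (95% interval 0.03 to 1.22), and HTR2A stood at -0.41 ± 0.20 (95% interval -0.83 to 0.00). Among neuropeptide and granule genes, 8 of 25 tested members had a fold change above 0, the median was -0.11, and none had a p under 0.05, with SCG3, a secretogranin, at -0.17 ± 0.10 and CCK, cholecystokinin, at -0.22 ± 0.14. The neuropeptide median was -0.04 without moderate replicate 2 and -0.03 without moderate replicate 3.

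Excitatory markers had a median below 0 and interneuron markers one above 0. Among excitatory markers, 6 of 18 tested members had a fold change above 0, the median was -0.19, and none had a p under 0.05. The excitatory median was -0.01 without mild replicates 1 and 5, -0.05 under limma and -0.09 with the meningeal covariate. Leaving out 1 library gave -0.07 without moderate replicate 2, -0.10 without moderate replicate 1 and -0.13 without mild replicate 5. CUX1, an upper layer factor, stood at 0.23 ± 0.12 (95% interval -0.02 to 0.48) and BCL11B, a deep layer factor, at -0.49 ± 0.26 (95% interval -1.04 to 0.06). Among interneuron markers, 15 of 21 tested members had a fold change above 0, the median was 0.07, and 1 had a p under 0.05, on the higher side. CALB1, calbindin, lay between 1.54 and 10.1 CPM (median 1.75) in moderate libraries and between 0.691 and 1.86 CPM (median 1.45) in mild libraries, and its log2 fold change of 1.24 ± 0.46 (95% interval 0.29 to 2.20) was 0.40 without moderate replicate 6. ADARB2, a marker of interneurons of caudal origin, stood at 0.39 ± 0.28.

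Among astrocyte markers, 13 of 20 tested members had a fold change above 0, the median was 0.12, and 1 had a p under 0.05, on the higher side. GFAP (chromosome 19), the intermediate filament of astrocytes that rises in reactive cells, lay between 1243 and 9591 CPM (median 3883) in moderate libraries and between 1433 and 4257 CPM (median 2375) in mild libraries. Its log2 fold change was 0.89 ± 0.40 (95% interval 0.05 to 1.73), or 0.59 without moderate replicate 3. NDRG2, another astrocyte gene, stood at 0.31 ± 0.15 (95% interval -0.01 to 0.63), with all 6 moderate libraries above the mild median. Oligodendrocyte and myelin markers were the most variable of the glial lists in summed level, which lay between 2069 and 12038 CPM (median 2697) in moderate libraries and between 2133 and 7173 CPM (median 5225) in mild libraries. The mild range lay within the moderate one, and 10 of 20 tested members had a fold change above 0, the median was -0.0083, and none had a p under 0.05. Without moderate replicate 6, the highest library, the median was -0.57, and leaving out each other library gave -0.14 (without mild replicate 4) to 0.13 (without moderate replicate 1). It was -0.17 under the replicate block, 0.21 with the meningeal covariate and 0.07 without mild replicates 1 and 5. OLIG1, a lineage factor, stood at 0.65 ± 0.50 and TSPAN2, a tetraspanin of oligodendrocytes, at -0.22 ± 0.21. Among precursor markers, 6 of 11 tested members had a fold change above 0, the median was 0.0063, and 1 had a p under 0.05, on the higher side. CSPG4, the NG2 proteoglycan of precursors and pericytes, had a log2 fold change of 0.48 ± 0.17 (95% interval 0.12 to 0.84), and VCAN, versican, 0.23 ± 0.15.

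Meningeal and pericyte markers had the 2 highest list medians, with collagen and matrix genes among the next 3. Among collagen and matrix genes, 31 of 34 tested members had a fold change above 0, the median was 0.32, and 3 had a p under 0.05, all higher. TNC, tenascin C, stood at 0.44 ± 0.19 (95% interval 0.03 to 0.84). Among pericyte and smooth muscle markers, 13 of 17 tested members had a fold change above 0, the median was 0.51, and 2 had a p under 0.05, both higher. MYH11 (chromosome 25), smooth muscle myosin, lay between 45.4 and 219 CPM (median 73.2) in moderate libraries and between 14.8 and 75.1 CPM (median 29.9) in mild libraries, with a log2 fold change of 1.31 ± 0.59 (95% interval 0.08 to 2.54). CNN1, calponin of smooth muscle, lay between 10.6 and 37.8 CPM (median 29.8) in moderate libraries and between 8.28 and 20.4 CPM (median 13.8) in mild libraries, with a log2 fold change of 0.95 ± 0.43 (95% interval 0.04 to 1.85). Room air averaged 111 ± 127 CPM for MYH11 and 28.1 ± 23.8 CPM for CNN1, above the moderate means and with a wide spread.

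Among markers of meningeal and perivascular fibroblasts, 17 of 18 tested members had a fold change above 0, the median was 0.70, and none had a p under 0.05. COL1A1, a fibrillar collagen chain, lay between 28.2 and 221 CPM (median 47.7) in moderate libraries and between 4.42 and 85.8 CPM (median 31.3) in mild libraries, with a log2 fold change of 1.27 ± 0.77 (95% interval -0.35 to 2.89), and OGN, osteoglycin, stood at 1.00 ± 0.68 (95% interval -0.42 to 2.43). The spread within a group exceeded the difference: the summed level of the 18 markers lay between 919 and 3967 CPM (median 1483) in moderate libraries and between 609 and 2117 CPM (median 1380.3) in mild libraries. Moderate replicates 5 and 2 were the highest libraries and mild replicate 5 the lowest, and no marker was at 0 in all 12 libraries. The median of the meningeal markers was 0.37 without moderate replicate 2, 0.29 without moderate replicate 5 and 0.46 without mild replicate 6, and that of the collagen and matrix genes was 0.21 without moderate replicate 2. With the meningeal score as a covariate, the median of the collagen and matrix genes was 0.08 and that of the pericyte markers 0.32. The meningeal and matrix lists share at least COL1A1. Their medians are thus not independent, and the lower matrix median under that covariate is no separate result. In that fit 424 genes had a p under 0.05, against 725. Without mild replicates 1 and 5 the medians were 0.24 for the meningeal, 0.17 for the matrix and 0.26 for the pericyte list.

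Endothelial and growth factor lists had lower medians than the pericyte list. Among endothelial markers, 13 of 22 tested members had a fold change above 0, the median was 0.06, and none had a p under 0.05, with MFSD2A, a lipid transporter of the blood-brain barrier, at 0.28 ± 0.15 and KDR, the main VEGF receptor, at 0.33 ± 0.20. Without mild replicates 1 and 5 the endothelial median was -0.14, below 0. Among vascular growth factor and Notch genes, 27 of 36 tested members had a fold change above 0, the median was 0.15, and 1 had a p under 0.05, on the higher side. That median was -0.0022 without mild replicates 1 and 5, 0.05 without mild replicate 1, 0.08 without moderate replicate 2, 0.24 without moderate replicate 3, 0.04 under limma and 0.06 with the meningeal covariate. CCN2, a matrix-associated growth factor, stood at 0.48 ± 0.22 (95% interval 0.02 to 0.94), and at 0.31 without moderate replicate 5. NOTCH2, a Notch receptor, stood at 0.35 ± 0.17 (95% interval -0.01 to 0.72).

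**Figure D4:**
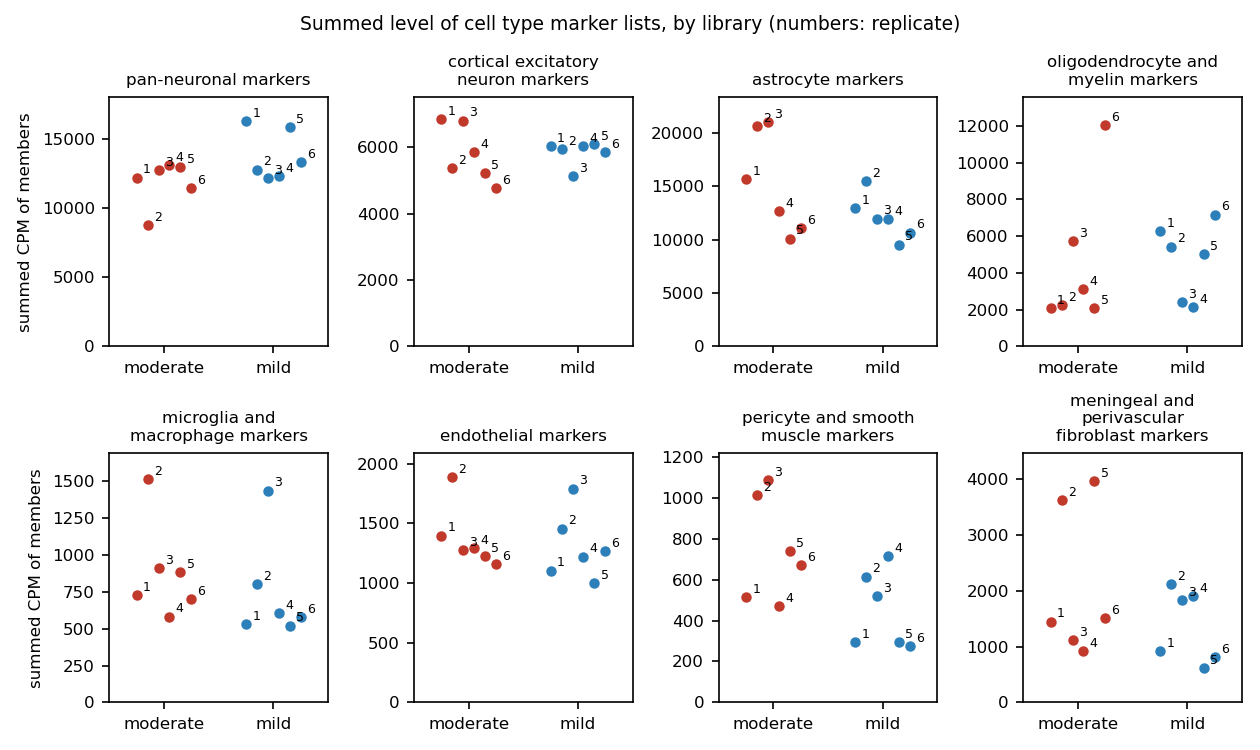
Summed CPM of the members of 8 marker lists in each mPFC library (red, moderate; blue, mild; the number beside a dot is the replicate; axes start at 0). Moderate replicate 2 combines the lowest pan-neuronal with the highest microglial sum, and mild replicates 1 and 5 combine the highest pan-neuronal with low pericyte and meningeal sums.

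Immune lists had medians above 0 with no member at p under 0.05 in 5 of 5 lists. Among antigen presentation genes, 14 of 15 tested members had a fold change above 0, the median was 0.33, and none had a p under 0.05. TAP1, the peptide transporter, lay between 22.8 and 49.5 CPM (median 36.3) in moderate libraries and between 12.8 and 45.7 CPM (median 24.1) in mild libraries, with a log2 fold change of 0.51 ± 0.30 (95% interval -0.11 to 1.13), and NLRC5, an activator of class I genes, stood at 0.63 ± 0.56 (95% interval -0.55 to 1.80). Among interferon response genes, 26 of 30 tested members had a fold change above 0, the median was 0.23, and none had a p under 0.05. MX1 and IFIT1, antiviral proteins, stood at 0.65 ± 0.35 (95% interval -0.09 to 1.39) and 0.85 ± 0.50 (95% interval -0.19 to 1.89), and at 0.20 and 0.13 without moderate replicate 3. Reads of histocompatibility and MX genes may be shared with near-identical genes.

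Complement genes had the highest median of the 5, as 14 of 15 tested members had a fold change above 0, the median was 0.47, and none had a p under 0.05. C5, a terminal component, stood at 1.07 ± 0.68 (95% interval -0.36 to 2.50) and C7, another, at 1.33 ± 0.90 (95% interval -0.54 to 3.21), and without moderate replicate 2 at 0.60 and 0.72. Among cytokine and innate inflammation genes, 21 of 30 tested members had a fold change above 0, the median was 0.18, and none had a p under 0.05, with the interleukin-6 receptor IL6R at 0.38 ± 0.24 and the chemokine CXCL12 at 0.76 ± 0.48. CXCL12 was -0.02 under limma with quality weights. Among microglia and macrophage markers, 20 of 22 tested members had a fold change above 0, the median was 0.23, and none had a p under 0.05. CSF1R, the receptor that sustains microglia, lay between 156 and 316 CPM (median 195) in moderate libraries and between 123 and 219 CPM (median 148) in mild libraries, with a log2 fold change of 0.39 ± 0.21 (95% interval -0.04 to 0.82), and TMEM119 stood at 0.27 ± 0.17. The microglial markers summed to values between 583 and 1515 CPM (median 806) in moderate libraries and between 521 and 1437 CPM (median 593) in mild libraries, each group holding 1 high library, moderate replicate 2 and mild replicate 3. The medians of the antigen presentation and microglial lists were 0.06 and -0.02 without mild replicates 1 and 5. The complement, cytokine and interferon response medians were 0.15, 0.03 and 0.09 without those 2 libraries. Without moderate replicate 2 the medians were -0.01 for antigen presentation, 0.13 for interferon response, 0.17 for complement, 0.10 for cytokine and 0.01 for microglial genes. Without mild replicate 3 they were 0.72, 0.45, 0.84, 0.44 and 0.51 in the same order of lists, and without mild replicate 1 the antigen presentation, interferon response, cytokine and microglial medians were 0.15, 0.11, 0.08 and 0.07. The interferon response median was 0.07 without moderate replicate 3, 0.35 without moderate replicate 4 and 0.14 without mild replicate 6.

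Metabolic and protein synthesis genes had medians near 0. Among cholesterol synthesis and uptake genes, 7 of 22 tested members had a fold change above 0, the median was -0.08, and 2 had a p under 0.05, both lower. MSMO1 (chromosome 17), a sterol oxidase of the pathway, lay between 191 and 265 CPM (median 228) in moderate libraries and between 229 and 409 CPM (median 302) in mild libraries, with a log2 fold change of -0.41 ± 0.12 (95% interval -0.66 to -0.15), and STARD4, a sterol transfer protein, stood at -0.48 ± 0.17 (95% interval -0.84 to -0.12). Without mild replicates 1 and 5 they stood at -0.26 and -0.29, and the median of their list was 0.01. Among oxidative phosphorylation genes, 3 of 27 tested members had a fold change above 0, the median was -0.07, and none had a p under 0.05, with ATP5PB, an ATP synthase subunit, at -0.18 ± 0.09 (95% interval -0.37 to 0.00) and SDHD, of complex II, at -0.13 ± 0.09. The oxidative phosphorylation median was -0.12 without mild replicates 1 and 5. Among ribosomal protein genes, 19 of 23 tested members had a fold change above 0, the median was 0.11, and none had a p under 0.05, with RPLP0 at 0.29 ± 0.19 and RPL8 at 0.20 ± 0.14. The ribosomal median was -0.06 without mild replicates 1 and 5 and -0.07 under limma, both below 0, and mild replicate 5 held the lowest ribosomal sum of the 12 libraries.

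Stress and growth lists held no called member, and their counts at p under 0.05 stand beside 4.71% of all genes. Among unfolded protein and integrated stress response genes, 16 of 27 tested members had a fold change above 0, the median was 0.02, and 1 had a p under 0.05, on the higher side. That member was ATF3, and PPP1R15A, which reverses the translation block of that response, stood at 0.26 ± 0.13 (95% interval -0.02 to 0.53). Heat shock genes held CHORDC1, an HSP90 partner, at -0.32 ± 0.13 (95% interval -0.59 to -0.04), and HSPB8, a small heat shock protein, at -0.21 ± 0.09 (95% interval -0.39 to -0.03), while 5 of 16 tested members had a fold change above 0, the median was -0.07, and 2 had a p under 0.05, both lower. Among oxidant defence genes, 17 of 25 tested members had a fold change above 0, the median was 0.09, and 3 higher and 1 lower member had a p under 0.05. GCLC, which starts glutathione synthesis, stood at 0.25 ± 0.10 (95% interval 0.04 to 0.46) and KEAP1, the inhibitor of the NRF2 factor, at 0.17 ± 0.07 (95% interval 0.02 to 0.32). Among genes of mitosis and DNA replication, 16 of 25 tested members had a fold change above 0, the median was 0.02, and 1 higher and 1 lower member had a p under 0.05, with thymidylate synthase, TYMS, at -0.40 ± 0.14 (95% interval -0.69 to -0.11) and the replication helicase subunit MCM3 at 0.36 ± 0.17 (95% interval 0.00 to 0.72). The median of the mitosis list was -0.10 without mild replicates 1 and 5.

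Markers of neighbouring tissue and blood were low and scattered. Choroid plexus markers included TTR, transthyretin, which lay between 0.485 and 4.23 CPM (median 1.3) in moderate libraries and between 0.282 and 35.4 CPM (median 2.58) in mild libraries. Its log2 fold change of -2.02 ± 0.88 (95% interval -3.86 to -0.18) was -0.02 without mild replicate 6, and SLC4A5, a bicarbonate cotransporter of choroid plexus, stood at 0.74 ± 0.61. Among the choroid and ependymal list, 8 of 12 tested members had a fold change above 0, the median was 0.21, and 1 had a p under 0.05, on the lower side, with a median of 0.07 without mild replicates 1 and 5. Among blood and leukocyte markers, 9 of 16 tested members had a fold change above 0, the median was 0.09, and 1 had a p under 0.05, on the lower side, with the neutrophil protease MMP9 at -0.86 ± 0.41 (95% interval -1.72 to -0.00) and the cytotoxic cell gene NKG7 at 1.10 ± 0.56 (95% interval -0.07 to 2.27). Among striatal markers, 5 of 13 tested members had a fold change above 0, the median was -0.02, and none had a p under 0.05, with the adenosine receptor ADORA2A at 1.21 ± 0.62. Only 3 hindbrain genes were abundant enough to test, among them TPH2, the serotonin-synthesizing enzyme of raphe neurons, at -0.50 ± 0.30 and DBH, which makes noradrenaline, at -0.28 ± 0.27. Their median was -0.28, and 0.04 without mild replicates 1 and 5.

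The moderate minus mild difference was then set against the same contrast in the brainstem, as the mPFC difference minus the mean of the NTS, RTN and VRC differences, over all 72 libraries. edgeR called 0 of 16372 genes (0%), the lowest adjusted p was 0.438, and 1421 genes (8.68%) had an unadjusted p under 0.05. Neuronal and immune lists lay on opposite sides of 0 in this difference. The series description gives 6 animals a condition, so the 4 regions share animals, while the labels do not say which libraries come from 1 animal. This fit takes the 72 libraries as independent. With the replicate number within a condition as a block, edgeR called 50 genes, and 252 without mild replicate 3 of every region. The single genes given below had been named for their small p in the mPFC contrast. That contrast is part of the regional difference, so their differences are no separate evidence. Their mPFC values come from the 18-library fit, and their brainstem values and differences from the 72-library fit. The printed parts therefore need not add up to the printed difference.

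Antigen presentation genes had a median log2 fold change, moderate over mild, of 0.33 in the mPFC and of -0.84 in the NTS, -0.78 in the RTN and -1.21 in the VRC. The difference was above 0 for 15 of 15 members and 11 had a p under 0.05. Interferon response genes had medians of 0.23 in the mPFC, -0.44 in the NTS, -0.43 in the RTN and -0.67 in the VRC, with the difference above 0 for 31 of 31 members and 18 at p under 0.05. IFIT1 stood at 0.85 in the mPFC, -0.70 in the NTS, -0.89 in the RTN and -1.22 in the VRC, a difference of 1.78 ± 0.49 (adjusted p = 0.438). TAP1 stood at 0.51 in the mPFC, -0.55 in the NTS, -0.23 in the RTN and -1.21 in the VRC, a difference of 1.16 ± 0.39 (adjusted p = 0.493). With the replicate block both were called, at 1.57 ± 0.34 for IFIT1 and 1.05 ± 0.23 for TAP1 (edgeR adjusted p = 0.0322 each). For NLRC5 the difference was 1.99 ± 0.66 (adjusted p = 0.493) and for MX1 0.95 ± 0.33 (adjusted p = 0.498).

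Microglial markers followed the same pattern in these fits, with medians of 0.23 in the mPFC, -0.24 in the NTS, -0.43 in the RTN and -0.66 in the VRC. Their mPFC median was -0.02 without mild replicates 1 and 5 and 0.01 without moderate replicate 2. For the difference between regions, 10 of 22 microglial members had a p under 0.05. Complement genes gave 8 of 15, and blood and leukocyte markers 9 of 21, among them NKG7 with a difference of 2.26 ± 0.59 (adjusted p = 0.438). Single mild libraries were high. Antigen presentation genes summed to 2332 CPM in mild replicate 3 of the VRC, where the 5 other mild libraries held 532 to 1080 CPM and the moderate libraries 370 to 602 CPM (scaled over all 72 libraries). Interferon response genes summed to 2825 CPM in mild replicate 5 of the NTS, where the 5 other mild libraries held 1090 to 1593 CPM. That NTS library stayed in every regional fit. Leaving mild replicate 3 out of all 4 regions, a choice made after seeing the data, kept the difference above 0 for 15 of 15 antigen presentation genes (12 at p under 0.05) and 31 of 31 interferon genes (22 at p under 0.05). Mild replicate 3 was also the highest mild library of the mPFC for these 2 lists, at 1282 and 1248 CPM. Without it the mPFC medians rose to 0.72 and 0.45, so leaving it out also widened the difference from the mPFC side and is no check on that side. In the mPFC itself the antigen presentation median was 0.06 without mild replicates 1 and 5, as given above, and -0.01 without moderate replicate 2. Over all genes tested without mild replicate 3, 2050 (12.5%) had a p under 0.05 and edgeR again called 0.

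Neuronal genes lay on the other side. Among pan-neuronal markers the difference was below 0 for 13 of 14, with medians of -0.19 in the mPFC, 0.05 in the NTS, -0.06 in the RTN and 0.34 in the VRC. Among GABA genes it was below 0 for 25 of 27, with 9 at p under 0.05, and GLRB stood at -0.43 in the mPFC, 0.17 in the NTS, 0.17 in the RTN and 0.50 in the VRC, a difference of -0.73 ± 0.21 (adjusted p = 0.438). Among synaptic vesicle genes 31 of 34 were below 0 and 8 had a p under 0.05, SNAP25 with a difference of -0.50 ± 0.18 (adjusted p = 0.503). Meningeal markers had medians of 0.70 in the mPFC, -0.23 in the NTS, -0.05 in the RTN and -0.41 in the VRC, and COL1A1 differed by 1.87 ± 0.69 (adjusted p = 0.503). MYH11 of smooth muscle differed by 1.45 ± 0.41 (adjusted p = 0.438). Marker lists of neurons, immune cells and meninges all entered this difference, and the part of tissue content in the values of single genes was not tested.

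The glucocorticoid-responsive genes had medians above 0 in all 4 regions, 0.27 in the mPFC, 0.13 in the NTS, 0.19 in the RTN and 0.05 in the VRC, with 1 of 20 members at p under 0.05 for the difference. FKBP5 stood at 1.02 in the mPFC, 0.76 in the NTS, 0.99 in the RTN and 1.11 in the VRC, and its difference was 0.04 ± 0.50 (adjusted p = 0.994), where the mPFC value rests in part on moderate replicate 3 (0.40 without it). KLF15 stood at 0.58 in the mPFC, -0.15 in the NTS, 0.24 in the RTN and 0.26 in the VRC, a difference of 0.44 ± 0.23 (adjusted p = 0.584). Immediate early genes had medians of 0.24 in the mPFC, 0.12 in the NTS, 0.03 in the RTN and 0.02 in the VRC. For the difference 3 of 35 members had a p under 0.05, 1 above 0 and 2 below 0, against 8.68% of all genes. TMEM41B, among the lowest genes of the mPFC by p, stood at -0.52 in the mPFC, -0.09 in the NTS, -0.01 in the RTN and -0.06 in the VRC, a difference of -0.49 ± 0.13 (adjusted p = 0.438), and SRP9 differed by -0.42 ± 0.13 (adjusted p = 0.479). Both were picked by their p in the mPFC contrast, which is part of this difference and so favours values away from 0.

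**Figure D5:**
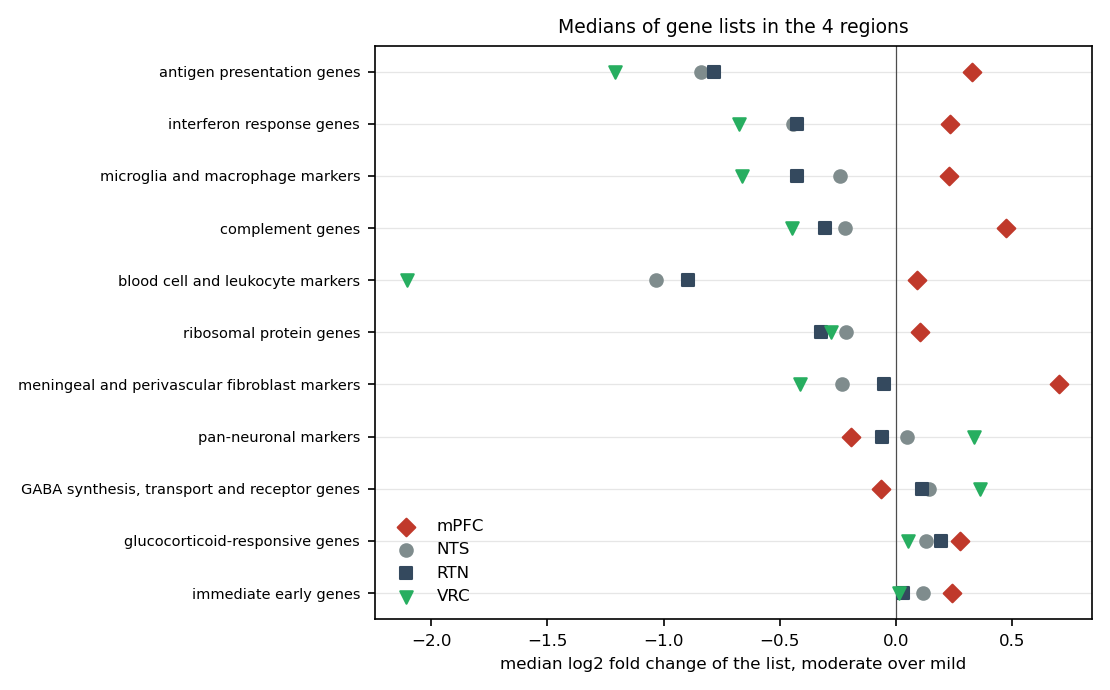
Median log2 fold change, moderate over mild, of 11 gene lists in the mPFC (red diamonds) and in 3 brainstem regions (NTS, grey circles; RTN, dark squares; VRC, green triangles). Antigen presentation, interferon, microglial, complement, leukocyte, ribosomal and meningeal medians are above 0 in the mPFC and below 0 in the 3 brainstem regions, while glucocorticoid-responsive medians are above 0 in all 4. The mPFC medians cover members tested in the mPFC fit, and the brainstem medians those tested over all 72 libraries. These are 16 and 21 leukocyte and 30 and 31 interferon genes. The antigen presentation, microglial, ribosomal and leukocyte mPFC medians fell below 0 in some other fits.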

How the data were processed

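The authors deposited 1 table of raw counts and RPKM values for 21343 goat genes in 72 libraries, made from total RNA with a low-input kit. Tools named in the submitters' processing notes are STAR, featureCounts, edgeR, FastQC and Trimmomatic. For their versions, the genome build and the strand setting, nothing is given in the sources used here. The deposited RPKM imply library sizes of 1.0047 to 1.0069 times the count sums, and were used only to check marker levels. A deposited length column of another unit gives gene model lengths in bases. As 89.7% of genes span less than that length, coordinates beyond the chromosome are left out. No symbol is given for 6643 genes, 2888 of them tested, and listed genes were matched by symbol (895 of 1056).

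The 18 mPFC libraries were fitted together with edgeR 4.0.16 in R 4.3.3 (TMM factors, genes kept by filterByExpr at a minimum count of 10, quasi-likelihood F-test, Benjamini-Hochberg adjustment over all genes tested at 0.05), with moderate minus mild as the contrast. CPM are TMM-scaled, errors of log2 fold changes are SE and those of CPM are SD. Marker scores are means of log2 CPM with a prior count of 2. The regional difference used all 72 libraries. Tests were checked on simulated data. Alternatives were DESeq2 1.42.0, limma 3.58.1 with quality weights, RLE factors, no filter, the 2 groups alone, a replicate block, a myelin or meningeal covariate and leaving libraries out. Arms have 6 libraries of 12.84 to 24.14 M counts, and intervals come from the spread between animals' libraries.

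Members and gene lists were chosen with earlier results of these data known. Named genes are the 10 of smallest p in each direction with a symbol and a mean of at least 5 CPM, and the 2 of smallest p in each list, except as said, and some of them are not reported here.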

Additional observations from a re-analysis of the deposited data

Results flagged for a closer look

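In 24 of 302 sets of 6 values, 1 library stood apart from the other 5. A set was a named gene's log2 CPM, a list's mean log2 CPM or the library totals, in the moderate or the mild group. Values of flagged genes are given as CPM. Chance flags about 1 set in 20, or 15.1 sets.

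Among moderate libraries, replicate 2 stood apart in 5 sets. It held NID1 at 15.8 CPM against 6.43 to 8.53 in the other 5, and TPH2 at 1.52 CPM against 2.45 to 2.99. Its list scores were 8.26 for pan-neuronal markers (8.65 to 8.87 in the others), 6.25 for synaptic vesicle genes (6.51 to 6.66) and 5.45 for endothelial markers (4.75 to 4.96). FKBP5 was 82.9 CPM in replicate 3 against 15.7 to 25.4, and CALB1 was 10.1 CPM in replicate 6 against 1.54 to 2.18. PHAX was 128 CPM in replicate 6, PCDHGB5 was 7.14 CPM in replicate 5 and ATF3 was 0.0629 CPM in replicate 1, each the lowest of its group. The glucocorticoid list score was 4.75 in replicate 4, below the 5.15 to 5.34 of the others. The oxidative phosphorylation score was 8.04 in replicate 5 and the circadian clock score 5.12 in replicate 1, each the highest.

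Among mild libraries, replicate 5 stood apart in 5 sets. It held AKAP7 at 26.3 CPM against 14.2 to 15.4, SLC16A7 at 11.95 CPM against 6.03 to 7.45, and RPL8 at 190.0 CPM against 304 to 354. Its scores were 5.77 for ribosomal protein genes (6.85 to 7.08 in the others) and 7.37 for oxidative phosphorylation genes (7.85 to 8.11). IL6R was 12.6 CPM and NOTCH2 5.62 CPM in replicate 1, both the lowest. FOS was 94.0 CPM in replicate 4 against 49.9 to 59.0, and BET1L was 18.4 CPM in replicate 2 against 20.9 to 22.4. Replicate 3 had a score of 3.16 for mitosis and DNA replication genes, the highest, and of 2.60 for striatal markers, the lowest.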

How the results depend on the processing

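No alternative called a gene between moderate and mild mPFC libraries. The count at an unadjusted p under 0.05, 725 in the main fit, was 818 with DESeq2, 634 with limma, 728 with RLE factors, 918 without a filter, 551 with the 2 groups alone, 671 with the myelin covariate and 735 with edgeR's newer fit. It was 424 with the meningeal covariate and 390 without mild replicates 1 and 5, both added after seeing the data. Leaving out 1 library at a time gave 520 to 1155, the highest without moderate replicate 4, and the cause was not tested. Same-numbered moderate and mild libraries gave mixed correlations of their deviations (2 of 6 pairs over 0.1, r from -0.361 to 0.438). With the number as a replicate block 704 genes were under 0.05 and 0 were called.

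For the difference from the brainstem, same-numbered libraries of a condition shared deviations in 28 of 36 pairs (median r 0.197), and the regions share animals, as 6 were used a condition, but the labels tie no number to an animal. With the replicate block edgeR called 50 genes, 46 of them higher in the mPFC difference, and 2225 were under 0.05. Without mild replicate 3 of every region the blocked fit called 252, including all 50, and 2842 were under 0.05. Without the block 0 were called either way.

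Of the genes named, 3 turned round in an alternative. CXCL12 was -0.023 under limma, OLIG1 ran from -0.079 (without moderate replicate 6) to 0.82 as single libraries were left out, and TPH2 was 0.051 under limma and 0.037 without mild replicates 1 and 5. The median of the 3 hindbrain genes was 0.051 under limma. The cause was not tested. Intervals reflect the spread between libraries, which exceeded counting noise, and genes under the count filter were not tested here.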
